A study of Mus musculus with 6 samples.

Results

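The genes described here encode 10 antioxidant enzymes of mouse adipose tissue: the superoxide dismutases Sod1, Sod2 and Sod3, catalase (Cat), the glutathione peroxidases Gpx1, Gpx3 and Gpx4, and the peroxiredoxins Prdx1, Prdx3 and Prdx5. They were taken by gene symbol from a table of 19928 genes, and 10 of 10 were found. Adipose tissue RNA of KM mice was sequenced in 6 libraries, 3 from a control group, whose diet is labelled only as control, and 3 from a group fed RAS, the root radix Angelica sinensis of Chinese herbal medicine, at 10.00 g/kg BW. Table columns were tied to the RAS group by a group name in its treatment protocol, and the other numbered set was taken as control by elimination, so every direction below rests on that assignment. The series title speaks of mice made obese by a high-fat diet, but the diet label of the control samples does not name that diet. The labels used here give no age, sex or fat depot. They also do not say that samples are separate animals, so the p-values cover only the scatter of these 6 libraries, which may be technical.

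These enzymes dispose of reactive oxygen in series. Superoxide dismutases turn superoxide, a by-product of respiration and of oxidases, into hydrogen peroxide. Catalase, the peroxiredoxins and the glutathione peroxidases then reduce hydrogen peroxide or lipid peroxides to water or alcohols. The enzymes differ in where they work: Sod1, Gpx1 and Prdx1 mainly in the cytosol, Sod2 and Prdx3 in mitochondria, catalase in peroxisomes, Prdx5 in several compartments, and Sod3 and Gpx3 outside the cell. In fat tissue, where lipid is stored and burned, Gpx4 guards membranes against lipid peroxidation and Gpx3 is secreted by fat cells into plasma.

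The 3 glutathione peroxidases are selenoproteins: a TGA codon, elsewhere a stop signal, is read as selenocysteine at the active site. Their mRNAs therefore need the same insertion machinery, and the coding sequence around that codon shows the feature that sets them apart from the other 7 genes. The windows below were read from GENCODE M21 transcripts (GRCm38), 5′ to 3′, on the coding strand, with the selenocysteine codon in capitals and 8 codons on each side.
Gpx1: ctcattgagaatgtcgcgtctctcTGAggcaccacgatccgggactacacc
Gpx3: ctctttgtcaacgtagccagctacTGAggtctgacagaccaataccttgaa
Gpx4: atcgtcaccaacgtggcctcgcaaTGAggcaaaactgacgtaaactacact
The codon lies at chr9:108339451-108339453 in exon 1 of 2 of Gpx1, at chr11:54907256-54907258 in exon 2 of 5 of Gpx3 and at chr10:80054737-80054739 in exon 3 of 7 of Gpx4, each on the plus strand; the Gpx3 window runs across a splice junction. Gpx1 and Gpx4 shared 29 of 51 bases, Gpx3 and Gpx4 26, and Gpx1 and Gpx3 24, and 19 positions were the same in all 3.

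Values are FPKM, fragments per kilobase of transcript and per unit of library depth, as deposited by the authors. Loci are those of the table, whose build is not stated; each overlaps the protein-coding gene of that name in GENCODE M21 (GRCm38). The libraries held about 14380000 to 15750000 assigned reads, and each of the 10 genes had 1483 to 19315 reads in every library, so counting error was at most 2.6% of a value. Fat cell genes were abundant in all 6 libraries, with Adipoq, the hormone adiponectin, at 2357 to 3460 FPKM. RAS 3 stood apart in markers of brown or beige fat. On the log2 scale its 5 tested markers had a mean level 2.36 above the 6-library mean, against -2.05 to 0.47 elsewhere. Its Ucp1, which uncouples respiration to make heat, was at 163 FPKM against 0.0343 to 33.8 in the other libraries. Between groups, 5 of 5 tested markers had higher means with RAS (median log2 1.10) and 0 passed. In 2 of 5, Cidea and Elovl3, the RAS ranges were above control (5.42% of all genes tested). Cidea was at 42.4, 16.5 and 1.38 FPKM in controls 1 to 3 and at 46.8, 65.0 and 218 in RAS 1 to 3 (log2 2.86, limma adjusted p = 0.428). Control 1 had the second highest brown fat score, 0.47, and the highest sum of skeletal muscle markers. These muscle sums were 202, 136 and 69.2 FPKM in controls 1 to 3 and 22.5, 60.8 and 35.8 in RAS 1 to 3, without overlap. All 4 tested muscle markers had lower means with RAS (median log2 -0.9) and 0 passed. Of the 4, only Acta1 was apart below control (12.5% of all genes tested, log2 -1.71, limma adjusted p = 0.315). Control 3 was highest in liver markers, 163 FPKM in sum against 9.69 to 26.2. Whether other tissue in a sample bears on the genes below was not tested. In bulk tissue, more cells of a type and more RNA per cell cannot be told apart.

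None of the 10 genes passed the test between RAS and control. Sod1, Gpx4, Prdx5, Cat, Prdx3, Prdx1 and Sod2 had higher means with RAS and Gpx1, Gpx3 and Sod3 lower ones. Counts of higher and lower means, here and below, go by the means of log2(FPKM + 1). For Sod1 and Cat all RAS libraries lay above all controls. In limma's test on log2(FPKM + 1), adjusted by Benjamini-Hochberg over the 12606 genes whose mean FPKM reached 1, 0 of 10 were past the threshold of 0.05, where 0.0% of all genes tested were, the smallest adjusted p in the table being 0.138. At an unadjusted p under 0.05 stood 0 of 10 as well, against 10.3% of all genes tested (486 higher and 808 lower with RAS, but 664 and 640 with median-ratio size factors). That count of members was 1 with sample weights or without RAS 3, and 2 without control 1 or without both of these libraries. The log2 difference was above 0 for 7 of 10, against 43.0% of all genes tested, with a median of 0.18 against -0.04. Under quantile normalization 6 of 10 were above 0, because Prdx1 changed sign. The ranges were apart with RAS above control for 2 of 10 (5.42% of all genes tested) and with RAS below control for 0 of 10 (12.5%). These shares by direction, here and below, are those of the deposited FPKM and depend on its scaling. With median-ratio size factors the median over all genes tested was -0.0, and 7 of 10 members were above 0. The shares above 0 and apart were not recomputed with those factors.

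**Figure D1:**
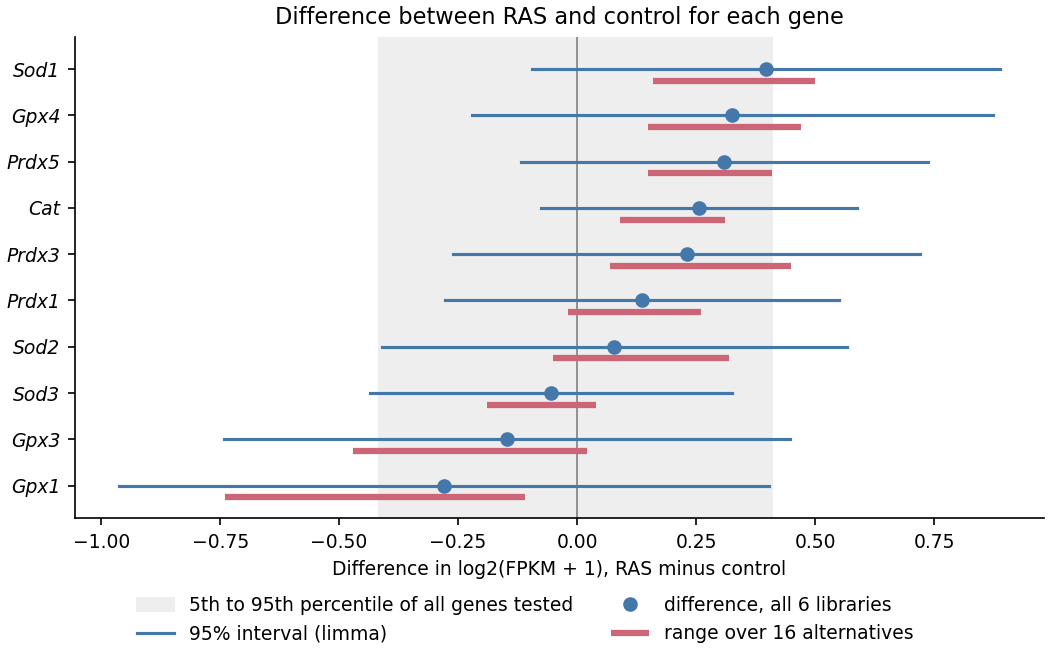
Difference in log2(FPKM + 1), RAS minus control, for each gene: points are the differences over all 6 libraries, thin lines their 95% intervals from limma, thick lines the range over 16 alternative analyses, and the grey band the 5th to 95th percentile of the 12606 genes tested (-0.42 to 0.41). Every 95% interval includes 0, and the alternatives keep Sod1, Gpx4, Prdx5, Cat and Prdx3 above 0 and Gpx1 below it.

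All 10 genes were strongly expressed. FPKM is scaled per length, so levels of different genes are set side by side, but their order rests on the lengths the authors used. Those lengths are not given. By reads the picture differs: in control 1 Prdx5 had 2205 reads against 6806 for Prdx1, and Sod1 5694 against 5445 for Sod3. Over the 6 libraries the mean level ran from 36.0 FPKM for Sod2 to 905 for Sod1, and every gene lay above the 90th percentile of the table, Sod2 at 90.28 and Sod1 at 99.77. Sod1 was the most abundant of the 10 in 6 of 6 libraries, followed on average by Gpx4 (598 FPKM), Gpx1 (517), Cat (386), Prdx5 (329), Gpx3 (289), Prdx1 (257), Sod3 (188) and Prdx3 (87.7). The places of Sod3, Prdx3 and Sod2 as 8th, 9th and 10th were the same in 6 of 6 libraries, and the ranges of Prdx1 and Sod3, of Sod3 and Prdx3, and of Prdx3 and Sod2 did not overlap. From Gpx4 down to Prdx1 the ranges of neighbours overlapped, and Gpx3 exceeded Prdx1 in 3 of 6 libraries. Sod1 exceeded Gpx4 within each of the 6 libraries although their ranges overlapped. Gpx1 stood above Cat in the 3 controls and RAS 3 and below it in RAS 1 and RAS 2.

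**Figure D2:**
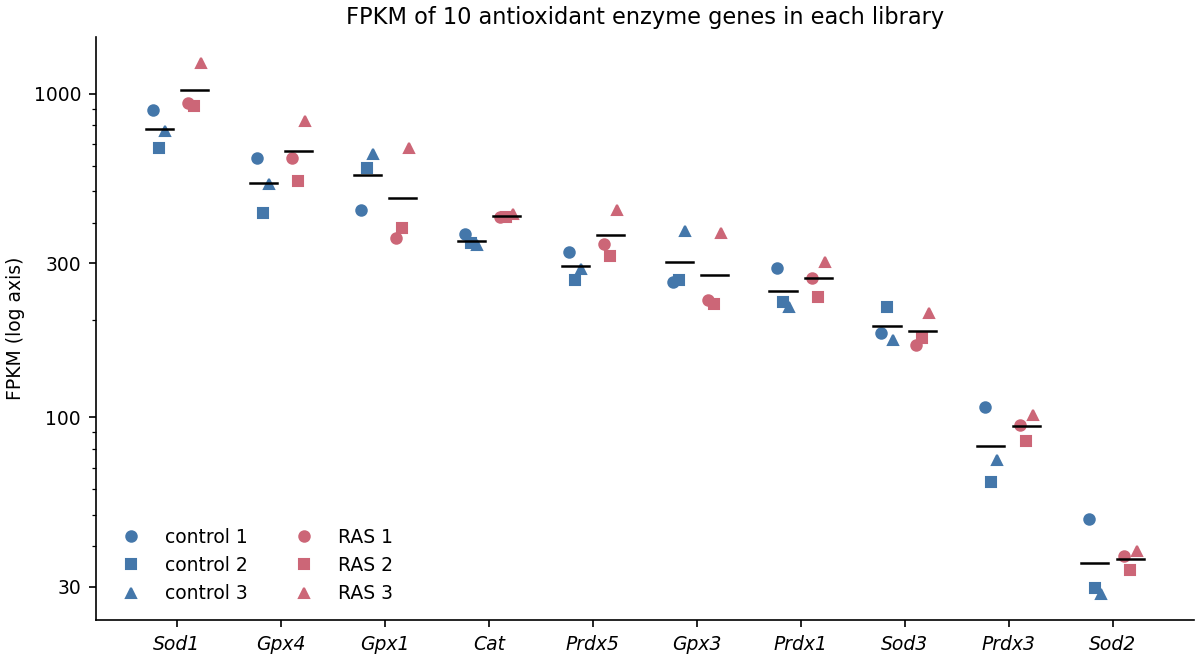
FPKM (log axis) of the 10 genes in each library, ordered by mean level: blue symbols are control, red symbols RAS, the shape gives the library number and black bars are group means (n = 3). Sod1 is highest in every library and Sod2 lowest, and the groups are fully apart for Sod1 and Cat.

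Among the superoxide dismutases, the cytosolic Sod1 was higher in each RAS library than in any control library, whereas mitochondrial Sod2 and secreted Sod3 differed little. Sod1, the copper and zinc enzyme (gene ID 20655, chromosome 16, 90220741 to 90226324), was at 892, 679 and 768 FPKM in controls 1, 2 and 3 and at 934, 916 and 1243 in RAS 1, 2 and 3. Control 1 and RAS 2 were nearly level, and RAS 3 stood well above the rest. The means were 780 ± 107 and 1031 ± 184 (SD, n = 3 in this and later means). On the log2 scale RAS minus control was 0.40 ± 0.21 (SE; limma adjusted p = 0.563). It was 0.16 under quantile normalization and 0.25 without RAS 3. Scaf4 on the other strand overlaps the 3′ end of Sod1 by 650 bases in GENCODE, and its mean level was 6.98 FPKM. No strand-marking step is named in the labels, so reads there could belong to either gene. Ccs, the chaperone that loads copper onto Sod1, was at 21.6 to 24.1 FPKM in control and 23.3 to 28.7 with RAS (log2 0.20; limma adjusted p = 0.623), and its groups overlapped.

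Sod2, the manganese enzyme of the mitochondrial matrix (gene ID 20656, chromosome 17, 13007838 to 13018119), was at 48.5, 29.6 and 28.5 FPKM in controls 1 to 3 and at 37.3, 33.8 and 38.5 in RAS 1 to 3. Control 1 was the highest of the 6 and the other controls the lowest, so the RAS libraries lay inside the control range. The log2 difference was 0.08 ± 0.21 (SE; limma adjusted p = 0.919), 0.32 without control 1 and -0.05 without control 3. Sod3, the secreted enzyme that binds the matrix of vessel walls (gene ID 20657, chromosome 5, 52363803 to 52369738), was at 183, 220 and 174 FPKM in controls 1 to 3 and at 168, 177 and 210 in RAS 1 to 3. Its groups overlapped almost entirely (log2 -0.06 ± 0.16 SE; limma adjusted p = 0.927). Smooth muscle and pericyte markers, from the vessel wall where Sod3 resides, had a summed level of 382 to 511 FPKM in control and 304 to 370 with RAS. These sums did not overlap, and 6 of 8 markers had lower means with RAS (median log2 -0.55). Taken singly, only 1 of 8, Acta2, was apart below control (12.5% of all genes tested). It alone had a limma unadjusted p under 0.05 (6.41% on the lower side). The part of these markers in the level of Sod3 was not tested.

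By FPKM, Sod1 dominated the dismutase family in every library. It supplied 79.4, 73.2 and 79.2% of the summed FPKM of the 3 genes in controls 1 to 3 and 82.0, 81.3 and 83.4% in RAS 1 to 3, so its share was higher in 3 of 3 RAS libraries. The ratio of Sod3 to Sod1 was 0.205, 0.323 and 0.226 in controls and 0.180, 0.193 and 0.169 with RAS, also without overlap. In a two-sided exact permutation test the log2 ratio differed by -0.45 (p = 0.10, the smallest that 3 against 3 can give; adjusted over the 7 ratios examined, 0.35). Without control 2 it was -0.26. Among those ratios no other pair was apart: adjusted p ran from 0.35 to 0.60 in these exact tests.

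**Figure D3:**
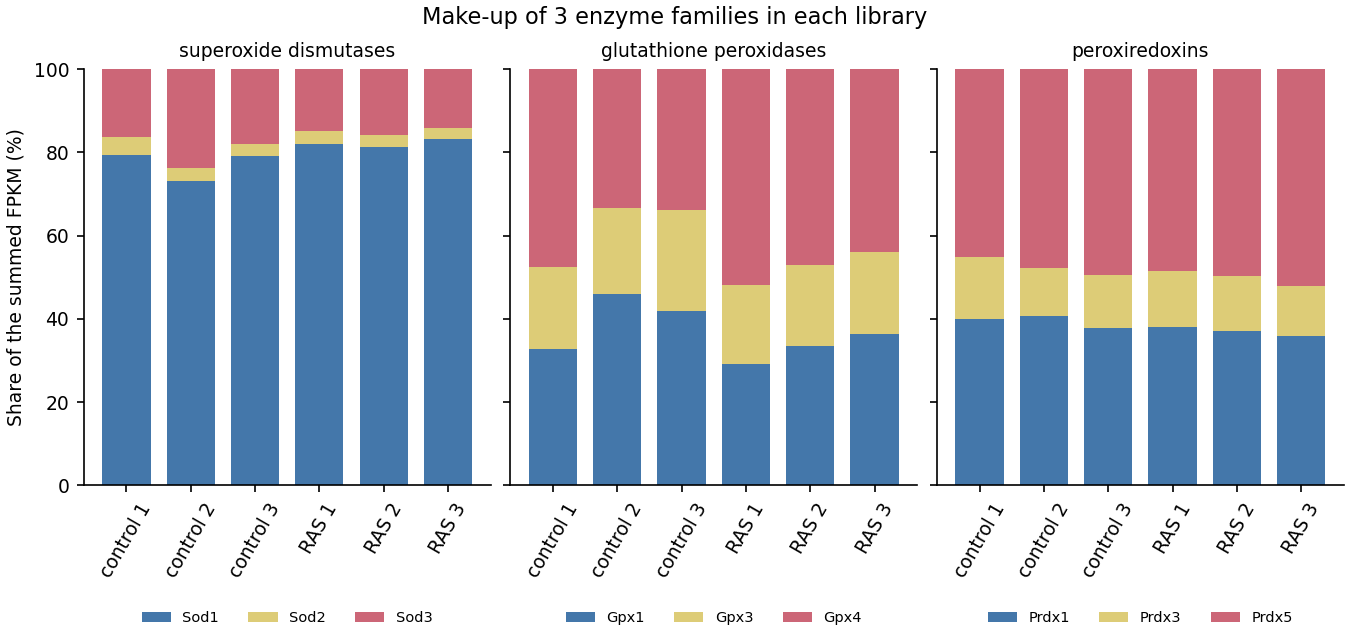
Share (%) of the summed FPKM that each gene supplies within the superoxide dismutases, the glutathione peroxidases and the peroxiredoxins, one bar per library. Sod1 takes 73.2 to 83.4% of its family, Gpx4 33.4 to 51.9% and Prdx5 45.1 to 52.0%.

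Catalase had the tightest groups of the 10. Cat (gene ID 12359, chromosome 2, 103453903 to 103485153), the heme enzyme that splits hydrogen peroxide in peroxisomes, was at 370, 346 and 340 FPKM in controls 1 to 3 and at 417, 417 and 427 in RAS 1 to 3. All 3 RAS libraries lay close together and above every control. The means were 352 ± 15.7 and 420 ± 5.65, a ratio of 1.19. On the log2 scale the difference was 0.26 ± 0.14 (SE; limma adjusted p = 0.583). The SE is wider than the replicate spread because limma draws each gene's variance toward that of genes of like level: the within-group SD of Cat, 0.05 on the log2 scale, lay at percentile 1.3 of the genes tested. The difference was 0.24 to 0.29 when control 1 or RAS 3 was left out, and 0.09 under quantile normalization.

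The table lists a second gene model, LOC100862111, on exactly the locus of Cat. It held 208 to 301 reads in control and 270 to 370 with RAS, which was 1.31 to 1.97% of the reads of the pair, so the FPKM of Cat rests on nearly all of them. LOC100862111 itself was at 200, 206 and 154 FPKM in controls 1 to 3 and at 332, 335 and 231 in RAS 1 to 3 (log2 0.67 ± 0.21 SE; limma unadjusted p = 0.0137, adjusted p = 0.373). In the authors' scaled counts the sum of both was 16437, 16769 and 15233 in controls and 19780, 20200 and 20128 with RAS, apart like Cat alone. How the authors divided reads between these models is not stated.

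Genes that build peroxisomes, the organelle of catalase, mostly had higher means. Of 18 tested, 12 had higher means with RAS (median log2 0.20, against -0.04 over all genes tested), 0 passed adjusted over all genes, 4 had an unadjusted p under 0.05 on the higher side (3.86% of all genes tested did) and 5 had RAS ranges above control (5.42%). Pex16, which starts new peroxisome membrane, was at 66.6, 44.4 and 56.2 FPKM in control and 87.5, 73.6 and 79.2 with RAS (log2 0.53; limma adjusted p = 0.390). Its partner in membrane assembly, Pex3, was at 22.4, 19.6 and 17.2 FPKM and 31.8, 27.7 and 23.6 (log2 0.47), and the membrane protein chaperone Pex19 at 65.1, 56.3 and 58.8 and 80.0, 72.6 and 70.6 (log2 0.30). In all of these each RAS library exceeded each control. Pex10 (log2 0.29) was apart as well, and so was Pxmp4 (0.33), a membrane protein picked out after its values were seen.

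Red cells are rich in catalase, Sod1, Gpx1 and Prdx2, and their marker levels differed between libraries as well. The red blood cell markers summed to 830, 1024 and 552 FPKM in controls 1 to 3 and to 1389, 862 and 2272 in RAS 1 to 3, with 4 of 4 tested members higher in mean (median log2 0.78) and 0 past the test. The part of these markers in the level of Cat or Sod1 was not tested. Fat cell markers had higher means in 7 of 9 cases (median log2 0.13), led in sum by the fatty acid binding protein Fabp4, and 0 passed. In 4 of 9 the RAS ranges were above control (5.42% of all genes tested), while Lep, the hormone leptin, was below control in each RAS library (log2 -0.63; limma unadjusted p = 0.0124, adjusted p = 0.369). The part of fat cell content in the catalase and peroxisome values was not tested. Macrophage markers were split 5 and 5 (median log2 0.01), endothelial markers 4 and 4 (-0.03), and fibroblast markers 3 higher and 5 lower (-0.14).

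The glutathione peroxidases went different ways: the membrane-protecting Gpx4 had a higher mean with RAS, and Gpx1 and Gpx3 had lower ones although RAS 3 was high. Gpx1, the cytosolic enzyme (gene ID 14775, chromosome 9, 108339079 to 108340342), was at 439, 590 and 650 FPKM in controls 1 to 3 and at 358, 385 and 682 in RAS 1 to 3. RAS 1 and RAS 2 were the lowest of the 6 libraries and RAS 3 the highest. The means were 560 ± 109 and 475 ± 180 (log2 -0.28 ± 0.29 SE; limma adjusted p = 0.759). Without RAS 3 the difference was -0.57 (adjusted p = 0.483) and without RAS 1 it was -0.11. With sample weights, which downweight libraries far from their group, it was -0.58 (adjusted p = 0.301).

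Gpx3, the plasma enzyme (gene ID 14778, chromosome 11, 54902852 to 54910387), was at 262, 266 and 377 FPKM in controls 1 to 3 and at 231, 224 and 372 in RAS 1 to 3. Control 3 and RAS 3 were high and nearly equal, and RAS 1 and RAS 2 were again the lowest. The log2 difference was -0.15 ± 0.25 (SE; limma adjusted p = 0.864), -0.38 without RAS 3 and 0.02 without control 3. Gpx4 (gene ID 625249, chromosome 10, 80053509 to 80056439), the phospholipid hydroperoxide enzyme that holds off ferroptosis, was at 634, 429 and 526 FPKM in controls 1 to 3 and at 635, 539 and 826 in RAS 1 to 3. Control 1 and RAS 1 were level, so the groups overlapped (530 ± 103 and 666 ± 146; log2 0.33 ± 0.23 SE; limma adjusted p = 0.662). The difference was 0.15 under quantile normalization, 0.16 without RAS 3 and 0.18 without control 2. GENCODE lists the processed pseudogene Gpx4-ps2 on chromosome 10, so the placing of some Gpx4 reads is uncertain. Pseudogenes were looked for only by names made of a gene's symbol and -ps. Those with other names would be missed for any of the 10 genes.

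Within this family the share of Gpx4 was 47.5, 33.4 and 33.9% in controls 1 to 3 and 43.9 to 51.9% with RAS. Control 1 resembled the RAS libraries here and controls 2 and 3 stood apart from all 4. The ratio of Gpx3 to Gpx4 was 0.413, 0.620 and 0.716 in controls and 0.364, 0.416 and 0.451 with RAS (log2 ratio difference -0.47; exact permutation p = 0.30). It was -0.71 without control 1 and -0.31 without control 3. Gpx3 and Gpx1 kept closer to each other, at a ratio of 0.451 to 0.646 over all 6 libraries (exact permutation p = 0.50 between groups). Cat exceeded Gpx1 in RAS 1 (ratio 1.17) and RAS 2 (1.08), and in no other library (0.523 to 0.843; exact permutation p = 0.20).

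Genes that serve all selenoproteins were not uniform either. Sephs2, which makes the selenium donor for selenocysteine, was at 45.3, 32.2 and 30.5 FPKM in controls 1 to 3 and at 47.5, 45.9 and 56.5 in RAS 1 to 3, without overlap (log2 0.48; limma unadjusted p = 0.0303, adjusted p = 0.432). Secisbp2, which brings the insertion machinery to selenoprotein mRNAs, was at 4.75, 4.75 and 4.74 in controls and lower in every RAS library, at 3.96, 4.14 and 3.51 (log2 -0.24; limma adjusted p = 0.488). Scly, which recovers selenium from selenocysteine, was at 6.41 to 7.55 in all 6. The plasma selenium carrier Selenop, listed under its older symbol Sepp1, was at 524 to 629 FPKM in control and 623 to 764 with RAS (log2 0.25; limma adjusted p = 0.658). Of 9 other selenoproteins tested, Selenop included, 5 had higher and 4 lower means (median log2 0.07), and 0 passed; Ept1, which makes phosphatidylethanolamine, was lower in each RAS library (log2 -0.25).

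The 3 peroxiredoxins had higher means with RAS and ranges that overlapped. Prdx5 (gene ID 54683, chromosome 19, 6906818 to 6909645), which reduces peroxides in mitochondria, peroxisomes and cytosol, was at 326, 265 and 287 FPKM in controls 1 to 3 and at 343, 315 and 438 in RAS 1 to 3. Only control 1 reached above a RAS library, exceeding RAS 2. The means were 293 ± 30.4 and 365 ± 64.1 (log2 0.31 ± 0.18 SE; limma adjusted p = 0.602), and the difference was 0.15 under quantile normalization and 0.17 without RAS 3. In GENCODE the gene Trmt112, on the other strand, overlaps Prdx5 by 409 bases and begins at 6909698. If the builds match, the locus of Prdx5 given above, which ends at 6909645, does not reach Trmt112.

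Prdx3, the mitochondrial peroxiredoxin that works with Sod2 (gene ID 11757, chromosome 19, 60864065 to 60874538), was at 108, 63.3 and 73.7 FPKM in controls 1 to 3 and at 94.9, 84.7 and 102 in RAS 1 to 3. As for Sod2, control 1 was the highest library and the other controls were below every RAS library. The log2 difference was 0.23 ± 0.21 (SE; limma adjusted p = 0.731), 0.45 without control 1 and 0.07 without control 2. Prdx1, the cytosolic form (gene ID 18477, chromosome 4, 116684961 to 116700000), was at 289, 227 and 220 FPKM in controls 1 to 3 and at 269, 235 and 302 in RAS 1 to 3. Control 1 and RAS 3 were highest (log2 0.14 ± 0.18 SE; limma adjusted p = 0.807), and the difference was -0.02 under quantile normalization, 0.26 without control 1 and 0.05 without RAS 3.

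The proportions of the 3 peroxiredoxins barely moved. Prdx5 supplied 45.1 to 49.5% of their summed FPKM in control and 48.5 to 52.0% with RAS, and Prdx3 11.4 to 14.9% and 12.1 to 13.4%. The ratio of Prdx3 to Prdx1 was 0.279 to 0.373 in control and 0.337 to 0.360 with RAS (exact permutation p = 0.60). That of Prdx5 to Prdx1 was 1.13, 1.17 and 1.31 in controls and 1.27, 1.34 and 1.45 with RAS (log2 ratio difference 0.17; exact permutation p = 0.20). By FPKM, Prdx5 was the most abundant of the 3 in both groups and Prdx3 the least.

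Across libraries most genes followed 1 of 3 patterns, described here from their values without a test. Sod2 and Prdx3, both mitochondrial, peaked in control 1, by 0.44 and 0.32 above their 6-library means on the log2 scale. Markers of mitochondrial mass, of which 13 of 16 had higher mean log2(FPKM + 1) with RAS (median log2 0.08) and 0 passed, were also high there. Their summed level was 1875 FPKM in control 1 and 1843 in RAS 3, against 1294 to 1595 in the other 4 libraries. Cs counts as higher (log2 0.03) although its mean FPKM was 172 in control and 168 with RAS. Sod1, Gpx4, Prdx5 and Prdx1 peaked in RAS 3 and had their lowest value in control 2 or control 3. Gpx1 and Gpx3 were low in RAS 1 and RAS 2 and high in control 3 and RAS 3, while Cat was low in all controls and high in all RAS libraries. Sod3 shared none of these patterns and peaked in control 2. The sum of all 10 genes was 3550, 3114 and 3445 FPKM in controls 1 to 3 and 3486, 3326 and 4639 in RAS 1 to 3, with RAS 3 above the other 5.

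**Figure D4:**
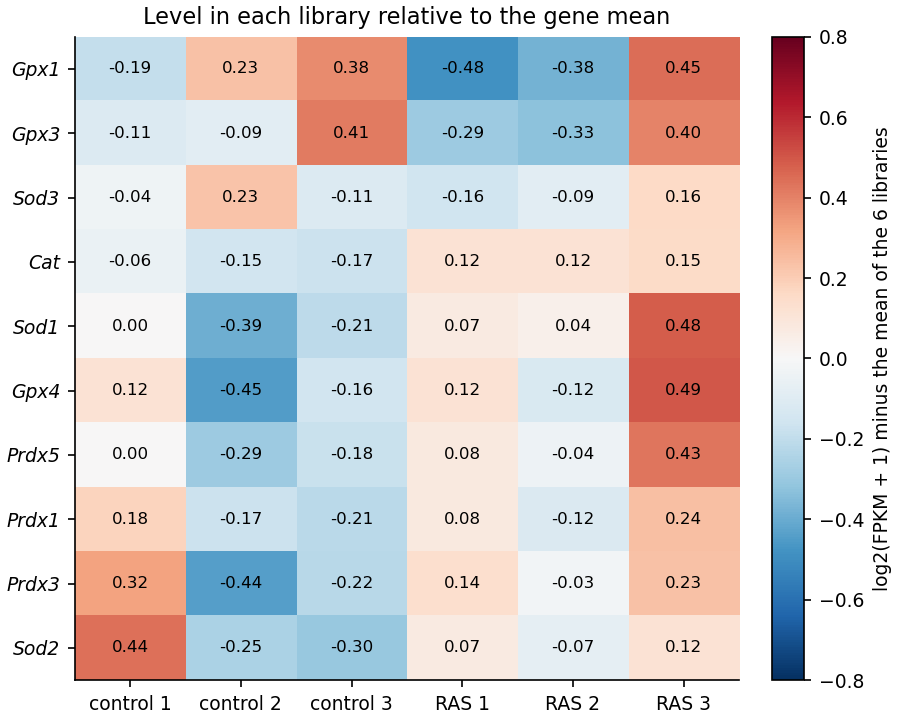
Level of each gene in each library as log2(FPKM + 1) minus the gene's mean over the 6 libraries, from blue (below the mean) to red (above). RAS 3 is red for all 10 genes, control 1 is reddest for Sod2 (0.44) and Prdx3 (0.32), and Cat is blue in the 3 controls and red in the 3 RAS libraries.

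How many genes had groups apart depended on which library was left out, as a description. Without control 1, Sod1, Sod2, Cat, Gpx4, Prdx1, Prdx3 and Prdx5 (7 of 10) had both remaining controls below all 3 RAS libraries, against 13.3% of all genes tested. Without RAS 3, Gpx1 and Gpx3 were lower in both remaining RAS libraries than in any control (19.4% of all genes tested), and Sod1 and Cat stayed above (9.22%). With both left out, the same 7 were above (20.3%) and the same pair below (26.1%). Without RAS 2, Gpx4 and Prdx5 joined Sod1 and Cat above (4 of 10, against 9.88%), and without control 2, control 3 or RAS 1 only Sod1 and Cat were apart. Smaller groups separate more easily, and control 1 and RAS 3 were singled out with these values known. In limma 0 of 10 genes passed without control 1, without RAS 3 or without both (adjusted p 0.193 to 0.973). The smallest unadjusted p in these fits was 0.00382, for Gpx1 without both (log2 -0.74), and Prdx3 had 0.0234 and Sod2 0.0381 without control 1 (limma). The brown fat, muscle and mitochondrial markers that stand high in these libraries are given above, and their part in these values was not tested.

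On the log2(FPKM + 1) scale, most of these genes had a within-group spread above the median of all genes tested. That pool was not matched by level, and it holds low genes whose spread this scale understates. Prdx1 (percentile 54.2), Prdx5 (55.7) and Sod1 (62.6) were the closest above the median. The within-group SD of Cat (0.05) and Sod3 (0.17) lay below the median of all genes tested, 0.19 on the log2 scale, and that of the other 8 above it, up to 0.42 for Gpx1. The highest library exceeded the lowest 1.25-fold for Cat, 1.31-fold for Sod3 and 1.92-fold for Gpx4.

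Other members of these families, counted here together with the Sod1 chaperone Ccs described above, mostly had higher means with RAS. Of 6 found in the table, 6 were tested, 5 had higher and 1 lower means (median log2 0.17), and 0 passed. Prdx2, the peroxiredoxin of red cells and cytosol, was at 230, 161 and 215 FPKM in controls 1 to 3 and at 240, 248 and 301 in RAS 1 to 3, without overlap (log2 0.39; limma adjusted p = 0.535). Prdx6, which reduces phospholipid peroxides, was at 75.2 to 110 and 78.3 to 115 (log2 0.02), Prdx4 of the secretory pathway at 29.1 to 39.5 and 33.0 to 46.7 (0.14), and Gpx8 of the endoplasmic reticulum at 34.6 to 48.5 and 38.8 to 85.5 (0.50). Gpx7, also of that compartment, had a log2 difference of -0.06.

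Genes of the systems that recharge peroxiredoxins and glutathione peroxidases had differences in both directions, and none passed the test. Of 13 genes of the thioredoxin and glutaredoxin system, 8 had higher and 5 lower means (median log2 0.06), with 0 past the test. Txnrd1, the cytosolic thioredoxin reductase, was at 23.0, 19.1 and 18.0 FPKM in controls and at 17.1, 15.2 and 16.7 with RAS, without overlap (log2 -0.27; limma adjusted p = 0.510). Its substrate Txn1 was at 84.9 to 101 and 95.3 to 135 (log2 0.19), and the mitochondrial reductase Txnrd2 at 9.18 to 13.9 and 10.2 to 12.6 (0.09). Glrx5, which serves iron-sulfur cluster assembly, had the smallest p (log2 0.34; limma unadjusted p = 0.0454, adjusted p = 0.471), while the glutaredoxins Glrx2 (-0.31) and Glrx (-0.51) had lower means, Glrx2 without overlap. Srxn1, which repairs overoxidised peroxiredoxins, differed by -0.06. The thioredoxin inhibitor Txnip, picked out after its values were seen, was at 429 to 771 FPKM in control and 760 to 1133 with RAS (log2 0.50; limma adjusted p = 0.595). Of 8 tested genes of glutathione supply 5 had higher and 3 lower means (median log2 0.02): the rate-limiting subunit Gclc differed by -0.04, Gclm by 0.12, the reductase Gsr by -0.11 and the cystine carrier subunit Slc3a2 by -0.28. Of 8 tested enzymes that make NADPH, the reducing power behind both systems, 5 were higher in mean log2(FPKM + 1). Pgd counts among these (log2 0.02) although its mean FPKM was 150 in control and 145 with RAS. Malic enzyme Me1 was at 121 ± 55.5 and 227 ± 108 FPKM (log2 0.90; limma adjusted p = 0.493). Mitochondrial Nnt was below control in each RAS library at 15.6 to 16.1 against 17.02 to 19.3 FPKM (log2 -0.20; limma adjusted p = 0.556). The folate enzyme Mthfd1 was below control too (log2 -0.32), and G6pdx of the pentose phosphate pathway overlapped (0.28).

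Regulators and targets of NRF2, the transcription factor that drives many antioxidant genes, had higher means in 10 of 12 cases by small amounts, and 0 passed. The median log2 difference was 0.09, against -0.04 over all genes tested, of which 43.0% were above 0. The list pools targets with regulators of opposite action, so this count does not measure NRF2 activity. Nfe2l2, which encodes NRF2, was at 31.7 to 37.0 FPKM in control and 31.5 to 34.2 with RAS (log2 -0.04), and its inhibitor Keap1 at 17.04 to 19.4 and 17.1 to 17.6 (-0.09). Bach1, a repressor at the same sites, was at 4.79, 4.52 and 5.47 in controls and 5.51, 6.51 and 6.70 with RAS (log2 0.29; limma unadjusted p = 0.0426, adjusted p = 0.468). The targets Nqo1 (log2 0.30) and Hmox1 (0.09) overlapped between groups, and the selective autophagy adaptor Sqstm1 was apart, at 125 to 127 and 137 to 158 FPKM (log2 0.22; adjusted p = 0.592). Among regulators of mitochondrial antioxidants, Foxo1, a factor that drives Sod2 and Cat in other settings, was lower in each RAS library, at 27.1, 21.2 and 23.7 FPKM against 33.1, 36.0 and 38.5 in controls (log2 -0.56; limma unadjusted p = 0.00304, adjusted p = 0.274). The mitochondrial deacetylase Sirt3 was at 9.38 ± 1.37 and 12.0 ± 2.88 (log2 0.31; adjusted p = 0.591), and Ppargc1a lay under the minimum at 0.235 to 1.06 FPKM.

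Enzymes that produce superoxide or hydrogen peroxide were split 5 higher and 7 lower of 12 tested (median log2 -0.00), with 0 past the test. The phagocyte NADPH oxidase subunit Ncf4 was at 5.35, 5.78 and 5.99 FPKM in controls and 4.04, 4.68 and 4.21 with RAS (log2 -0.34; limma unadjusted p = 0.0131, adjusted p = 0.371), whereas its catalytic partner Cybb was at 5.73 to 7.76 FPKM in control and 7.43 to 9.47 with RAS (log2 0.20; limma adjusted p = 0.665). Nox4, a constitutive oxidase, was at 0.631 to 1.18 FPKM and was not tested. Acox3, a peroxisomal oxidase of branched fatty acids, had a log2 difference of 0.29.

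Promoters were searched for motifs of factors named with these genes; none of the genes passed the expression test, so the matches only describe the sequences. RefSeq promoters (GRCm38.p6, 250 bases before to 50 after a start) were matched for 9 of the 10 genes, all but Sod3. The core of the antioxidant response element through which NRF2 acts, TGACNNNGC on either strand, was found for 2 of 9 genes, Sod1 and Prdx1, against 14.0% of 27025 genes. Their windows are shown 5′ to 3′ in the direction of the gene, with the match, which lies on the opposite strand in both, in capitals.
Sod1: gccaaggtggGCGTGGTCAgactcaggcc
Prdx1: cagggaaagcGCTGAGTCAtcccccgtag
The Sod1 window is chr16:90220696-90220724 (plus strand), with the match at -56 to -48 from the start, and the Prdx1 window is chr4:116685456-116685484 (plus strand), with the match at -133 to -125. Neither match overlaps a match of another motif searched.

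The AGGTCA core of nuclear receptor sites, from which PPAR sites are built, was found on either strand for Cat, Prdx3 and Gpx4 (3 of 9 genes, against 18.1% of all genes), and the full PPAR direct repeat of that core with 1 base between the copies for 0 of 9 (0.0481%). The Cat match is shown because its groups were apart and the Prdx3 match beside it for comparison, in the direction of the gene with the match in capitals.
Cat: tgactctcagAGGTCAgagaacacca
Prdx3: ggtattcaggAGGTCAaagggaaatt
The Cat window is chr2:103485342-103485367 and the Prdx3 window chr19:60874713-60874738, both on the minus strand, with the matches at -204 to -199 and at -190 to -185. Of the basal motifs, CCAAT was found for 5 of 9 (Cat, Gpx3, Gpx4, Sod1 and Sod2, against 41.1% of all genes) and TATAAA for 3 of 9 (Prdx1, Prdx3 and Sod1, against 15.7%). A match is a run of letters only, and whether a factor binds there was not measured.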

How the data were processed

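RNA-seq of adipose tissue from 3 control and 3 RAS samples was analysed. The authors deposited 1 table with FPKM and a scaled count signal per gene and sample; the submitters' processing notes list TopHat2 2.0.9 with Cufflinks 2.1.1, and no source used here gives the build, annotation or filters. Table loci overlapped the GENCODE M21 (GRCm38) gene of the same name for 10 of 10 genes. The count signal deposited by the authors is whole reads multiplied by 1 value per sample (0.911 to 1.06) for 98.8 to 99.0% of values above 0, within 0.02 of a read; it gave the depth and an alternative, and no count model was run. Per the labels' protocols the RAS mice are the DH group, the prefix of their columns; the other numbered columns (HC) were taken as control by elimination, and 4 further columns stayed out.

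limma 3.58.1 (R 4.3.3) compared log2(FPKM + 1), eBayes with a trend, two-sided, over the 12606 genes whose mean FPKM reached 1, adjusted by Benjamini-Hochberg with a threshold of 0.05. Fold changes on this scale understate changes of low genes. On simulated data with 12606 genes and 200 changed, 59.1% of log2 changes of 1 and 93.2% of changes of 2 were recovered. False calls numbered 4.8 and 9.6 per run. Both sizes exceed every member difference (Sod1, the largest, at 0.40), so the simulation does not show what would be recovered at the sizes seen here. Ratios between genes were tested by exact permutation (Python 3.11.15, numpy 2.4.6). The members and lists were chosen with earlier results of these data known. Named genes are the 10 members, up to 4 genes of smallest p in each list, and a fixed set of genes of these pathways. The text does not name all of them, and says of Pxmp4 and Txnip that they were picked afterwards. Pgd and Cs were picked afterwards as well, as genes whose mean FPKM and mean log2(FPKM + 1) differed in direction. The searches for the CCAAT box, the TATA box and the nuclear receptor core were added later than the test plan. The closing section gives the 16 alternatives tried.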

Additional observations from a re-analysis of the deposited data

How the results depend on the processing

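No difference of the 10 genes was called with all libraries or in any of 16 alternatives (a pseudocount of 0.1; other minimums on mean FPKM, none or 5; scaling by quantiles or by median-ratio factors; robust variances; weights per sample; a replicate block; scaled counts; each library left out in turn; control 1 and RAS 3 both left out). Sod1, Cat, Gpx4, Prdx5, Prdx3 and Gpx1 kept their direction in all 16. The ratios between genes were recomputed in 7, the other pseudocount and each library left out. Directions changed for Prdx1 under quantile normalization (-0.02), for Sod2 without control 2 (-0.03) and without control 3 (-0.05), for Sod3 without control 2 (0.04) and without RAS 1 (0.01), for Gpx3 without control 3 (0.02), and for the log2 ratio of Prdx3 to Prdx1 without control 2 (-0.02); the cause was not tested. With 1 library left out, values ranged from -0.05 to 0.32 for Sod2, from -0.15 to 0.04 for Sod3, from -0.38 to 0.02 for Gpx3 and from -0.02 to 0.19 for that ratio. Genes past the adjusted threshold numbered 0 with all libraries, 0 to 2 with 1 library left out and 3 without control 1 and RAS 3, and none was a member. Genes at an unadjusted p under 0.05 were split 486 higher and 808 lower, but 664 and 640 with median-ratio size factors, 650 and 660 under quantile normalization, 636 and 667 with scaled counts, 734 and 1116 with sample weights and 809 and 931 without control 1 and RAS 3. With the replicate number as a block, 0 members passed and 1663 genes against 1294 had an unadjusted p under 0.05. Same-numbered libraries deviated together with correlations of 0.178, 0.096 and 0.219. The labels used here name no pairing or batch, and whether one exists was not tested. Each of the 10 genes had at least 1483 reads in every library. Members at an unadjusted p under 0.05 numbered 0, but 1 with sample weights or without RAS 3 (Gpx1) and 2 without control 1 (Sod2 and Prdx3) or without both (Gpx1 and Prdx3).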
